A study of Zea mays with 4 samples.

Results

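miR168 and miR162 are conserved plant microRNA families that regulate the machinery which makes and uses small RNAs. Their entries were taken from a table of 319 distinct small RNA sequences as every sequence whose name holds miR168 or miR162 with no further digit. This gave 5 sequences in 6 of the table's 500 rows, 3 of miR168 and 2 of miR162. The libraries came from maize (*Zea mays*) leaves at the 4-leaf stage. CK1 and CK3 are leaves for which the labels name no treatment, called unfed here. T1 was taken after 1 day and T3 after 3 days of feeding by larvae of *Spodoptera frugiperda*, the fall armyworm. The labels give 1 library per group and no maize line, no plant number and no time for the unfed leaves, so nothing shows whether the libraries came from separate plants.

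In plants, Dicer-like 1 (DCL1) cuts a microRNA duplex out of a hairpin precursor, and Argonaute 1 (AGO1) keeps a strand of it, the guide, to find messenger RNAs that pair with it. The other strand, the passenger, is usually lost. The 5p strand of miR168 guides the cutting of AGO1 messenger RNA and the 3p strand of miR162 that of DCL1 messenger RNA, so both families act in feedback on the pathway that produces them. Both loops were worked out in *Arabidopsis*. In the RefSeq annotation of maize (Zm-B73-REFERENCE-NAM-5.0), MIR168a, MIR168b and MIR162 each name a single microRNA gene, argonaute1 is a synonym of LOC100193970 and dcl1 of LOC100381417.

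The miR168 sequences are shown as deposited, with T for U, because a single base separates the 3p strands of the 2 miR168 genes. The capitals mark the seed, bases 2 to 8 from the 5′ end.
zma-miR168a-5p: tCGCTTGGtgcagatcgggac
zma-miR168b-3p_R+1: cCCGCCTTgcatcaagtgaat
zma-miR168a-3p_R+1: cCCGCCTTgcaccaagtgaat
The 5p sequence stands in 2 rows of the table under the same name and with the same values. As background, the mature 5p strand is identical for both miR168 genes, so its value cannot be divided between them. The 3p strands share their seed and differ by C12T, counted from the 5′ end, with the base of the miR168a strand first. The 3p sequences of both genes were therefore listed separately. In a computed duplex with the 5p strand, both 3p strands formed 17 base pairs. The base at position 12 of the 3p strand lay opposite position 8 of the 5p strand, the last base of its seed, as a G:C pair for miR168a and as a wobble pair for miR168b. The computed energy was -29.2 kcal/mol for the miR168a duplex and -26.6 kcal/mol for the miR168b duplex.

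The miR162 sequences are shown because they differ only in length, 21 and 22 nucleotides.
zma-miR162-3p_R+1: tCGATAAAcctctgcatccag
lus-miR162a_R+1: tCGATAAAcctctgcatccagc
The longer one carries a name from flax (lus) and equals the maize entry with 1 base more at the 3′ end. Both are the strand known to target DCL1. No miR162 sequence of the 5p strand was among the rows analysed here. In the 2 instances where a name with a suffix of the form R+n stands in the table beside its plain name, the sequence was the plain one with n bases more at the 3′ end. No entry outside the 2 families shared a seed with any of these 5 sequences, and 0 came within 3 mismatches over 18 nucleotides. The 5p strand of miR168 and the miR162 sequences begin with T, while the 3p strands of miR168 begin with C. In *Arabidopsis*, AGO1 is known to hold mainly small RNAs that begin with U.

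The deposited values are normalized reads, scaled by the authors in a way that their labels and headers do not describe. After sequences with equal values and nested sequences or equivalent names were merged, the table had 307 entries, which summed to between 59320 and 69028 normalized reads in a library. Values moved in steps of 0.736 (CK1), 0.826 (CK3), 0.303 (T1) and 0.352 (T3), taken here as the value of 1 read. The steps imply between 80609 reads over the listed entries in CK1 and 195983 in T1, so both fed libraries were the deeper ones. All values of the 5 sequences were whole multiples of these steps within 0.02 of a read. The 95% intervals below come from these implied reads and cover counting error only. They are exact Poisson for a level and Wilson for a ratio or share. Names that begin with PC end in a number that may count reads. PC-3p-60461_10 and PC-3p-96052_5, both listed only in T1, stood at the same 3.03 normalized reads, where 5 reads by the step would be 1.51. PC-5p-60742_10, at 3.03 in T1 alone, also stood at 1 step per read of its name. PC-3p-60176_10 (6.06 in T1), PC-5p-60179_10 (7.04 in T3) and PC-5p-59745_10 (14.7 in CK1) stood at more, as did most PC entries listed in a single library. A read may thus be worth 1 step in some sequences and more in others, the latter being the commoner case among these entries. Where it is worth more, the implied reads are too high and the intervals too narrow.

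miR168 was an abundant family in every leaf library, and its 3p strands made up most of its normalized reads. zma-miR168b-3p_R+1, the 3p strand of the b gene, stood at 3889 and 3005 normalized reads in the unfed libraries CK1 and CK3 and at 3444 and 3908 in the fed libraries T1 and T3. It ranked between 3rd and 5th of all entries in each library and held between 4.35% and 6.56% of the listed total. CK3 was the lowest library, T1 stood above it, and CK1 and T3 lay within counting error of each other.

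zma-miR168a-5p, the strand that targets AGO1, had 1365 (CK1) and 979 (CK3) normalized reads in unfed leaves and 1187 (T1) and 1227 (T3) in fed leaves. It ranked between 7th and 9th. CK3 was again the lowest and CK1 the highest, and the intervals of T1 (1150 to 1225) and T3 (1187 to 1269) overlapped. The unfed libraries thus enclosed both fed ones.

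zma-miR168a-3p_R+1, the 3p strand of the a gene, was the least abundant of the family, at 247 (CK1) and 202 (CK3) normalized reads without feeding and 281 (T1) and 333 (T3) with it. Its intervals in CK1 (221 to 274) and CK3 (178 to 229) overlapped, as did those of CK1 and T1 (263 to 300), while T3 (313 to 355) lay above all 3. Both fed libraries stood above both unfed ones. The same order was found for 18.4% of the 147 entries that reached 10 normalized reads in 2 or more libraries, so it does not set this sequence apart.

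miR162 was far rarer. zma-miR162-3p_R+1 stood at 42.7 normalized reads in CK1, 26.0 in T1 and 29.6 in T3, or 58, 86 and 84 implied reads, and was listed at 0 in CK3. The intervals of the 3 libraries that list it were 32.4 to 55.2, 20.8 to 32.2 and 23.6 to 36.6. Those of T1 and T3 overlapped each other, and that of T3 overlapped that of CK1. The interval of T1 ended just below that of CK1, a gap that rests on 1 step being 1 read for this sequence. lus-miR162a_R+1 was listed only in T3, at 3.52 normalized reads or 10 implied reads. This was 10.6% (Wilson 95% interval 5.88% to 18.5%) of the miR162 reads there. PC-3p-105458_5, also listed only in T3, had the same value, and its name ends in 5. lus-miR162a_R+1 may thus lie near the level where listing starts, and its 0 elsewhere may stand for a low level. The families were most nearly matched in CK1, with 129 implied reads of miR168 for each implied read of miR162 (99.6 to 167). The ratio was 189 (153 to 233) in T1 and 165 (135 to 202) in T3. These ratios hold only if a read is worth the same in both families, which was not tested. The implied reads of miR162 were all even numbers (58, 86, 84 and 10), while zma-miR168a-5p had odd ones, 1855 in CK1 and 1185 in CK3. Were a miR162 read worth more steps than a miR168 read, the ratios would be too low.

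**Figure D1:**
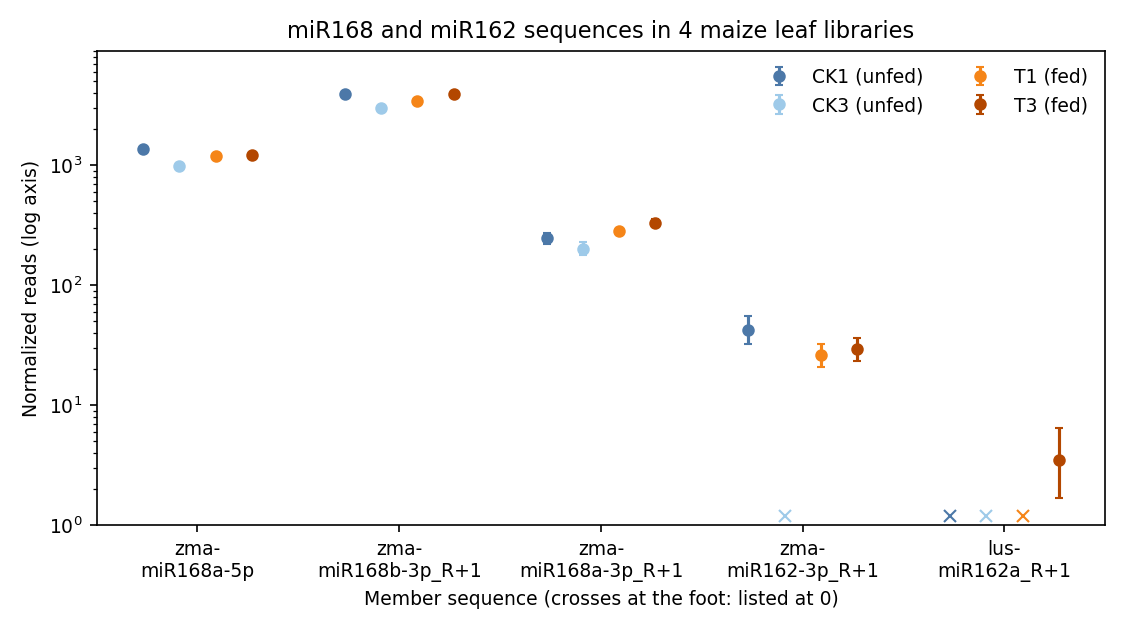
Normalized reads (vertical, log axis) of the 5 miR168 and miR162 sequences in the unfed libraries CK1 and CK3 and the fed libraries T1 and T3, with exact Poisson 95% intervals for counting error; crosses mark a sequence listed at 0. The miR168 sequences stand between 202 and 3908 normalized reads and are lowest in CK3, and zma-miR162-3p_R+1 is between 26.0 and 42.7 except in CK3, where it is listed at 0.

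Of 22 entries between 20 and 60 normalized reads in each of CK1, T1 and T3, zma-miR162-3p_R+1 was the only one listed at 0 in CK3. With a minimum of 15 and no upper limit, 2 of 102 entries were listed at 0 there, the other being osa-MIR6253-p3_2ss5AC17TA_1. These limits were chosen after the values were seen. In CK3 1 value above 0 was worth fewer than 5 steps, and 5 steps correspond to 4.13 normalized reads. A 0 there may stand for a level up to about that value, or higher where a read is worth more than 1 step.

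The arms of miR168 kept nearly the same proportion in every library. The 3p strands of both genes together held 75.2% (Wilson 95% interval 74.2% to 76.2%) of the miR168 reads in CK1, 76.6% (75.4% to 77.8%) in CK3, 75.8% (75.2% to 76.5%) in T1 and 77.6% (76.9% to 78.2%) in T3. For each read of the 5p strand the unfed libraries CK1 and CK3 had 3.03 and 3.28 reads of 3p and the fed libraries T1 and T3 had 3.14 and 3.46. By the intervals above, T3 lay above CK1 and T1, while fed and unfed libraries overlapped. The mean log2 ratio was 0.06 higher in the fed libraries (exact permutation test, two-sided, 2 against 2 libraries, p = 0.667, where the smallest p possible is 0.333). The scaling of a library is shared by its sequences and cancels in these ratios. A value per read that differs between sequences would not cancel, and whether it differs between these strands is not known. The 5p sequence stands in 2 rows of the table and each 3p sequence in 1.

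By the deposited values, the passenger strand was thus the more abundant one in miR168. For comparison, 15 families had maize-named mature entries of both arms, with miR and 5p or 3p in the name. The arm known to act as guide was assigned to each from general knowledge after the values had been seen. Maize-named entries with MIR and p5 or p3 in the name were left out. For miR169 these include zma-MIR169c-p5 and zma-MIR169c-p3, at 89.2 and 95.8 normalized reads in CK3, so its share depends on this choice. In 13 of the families the guide arm held more than 50% of the mature values in every library. Only in miR168 did it hold less than 50% in every library. Its guide share lay between 22.4% and 24.8%. The remaining family was the phosphate regulator miR399, at a mean of 11.7 normalized reads, whose guide arm was listed at 0 in CK1 and held 69.6% in T1 and 51.9% in T3, with neither arm listed in CK3. Among the 14 other families the guide share over the mean of the libraries ran from 44.9% in miR399 to 99.9% in miR390, with a median of 73.0%. The families nearest to miR168 in size were miR528, with 94.2% guide strand, and miR166, with 94.4%. This is a description of deposited values over families, with no test. The value of a read may differ between arms, so these shares may not be shares of reads.

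**Figure D2:**
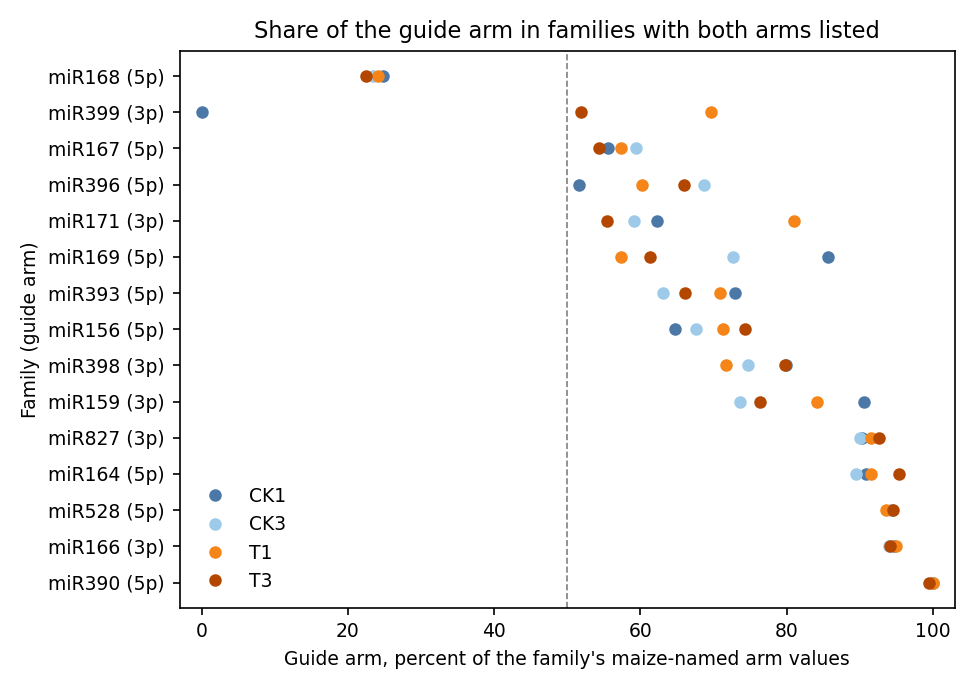
Percent of each family's maize-named mature 5p and 3p values held by the guide arm (given in brackets), 1 point per library, for the 15 families with mature entries of both arms. Entries with MIR and p5 or p3 in the name are left out. The dashed line marks 50%. All points of miR168 lie between 22.4% and 24.8%, left of the line, and the only other point left of it is that of miR399 in CK1.

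Between the 3p strands of the 2 genes, the b strand was in large excess everywhere, and the excess was smaller in the fed libraries. For each read of the a strand there were 15.8 reads of the b strand in CK1 (Wilson 95% interval 14.1 to 17.6), 14.9 in CK3 (13.1 to 16.9), 12.3 in T1 (11.5 to 13.1) and 11.7 in T3 (11.0 to 12.5). The fed and unfed libraries did not overlap, although the interval of CK3 touched that of T1. Among the levels of the 147 single entries, 27.9% also showed no overlap between fed and unfed libraries. The fed ratio was 0.783 times the unfed one, between 0.760 and 0.807 times when any 1 library was left out. The exact permutation test gave p = 0.333 (two-sided, 2 against 2 libraries), the smallest p this design allows, and this ratio was chosen after the values were seen.

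The same shift stood in the ratio of the a strand to the 5p strand, which shares the reads of the a strand with the ratio above. Per read of 5p there were 0.181 (CK1) and 0.207 (CK3) reads of the a strand in unfed leaves and 0.237 (T1) and 0.272 (T3) in fed leaves. The values of fed and unfed libraries did not overlap, but the intervals of CK3 (0.180 to 0.237) and T1 (0.220 to 0.254) did. The exact permutation test again gave the smallest p possible, 0.333. The share of 27.9% without overlap is for levels of single entries, and none was computed for ratios of other pairs of sequences. For the b strand the ratios were 2.85 and 3.07 in the unfed and 2.90 and 3.18 in the fed libraries, which overlapped. The fed libraries were also the deeper ones, and the part of depth in the shift was not tested.

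**Figure D3:**
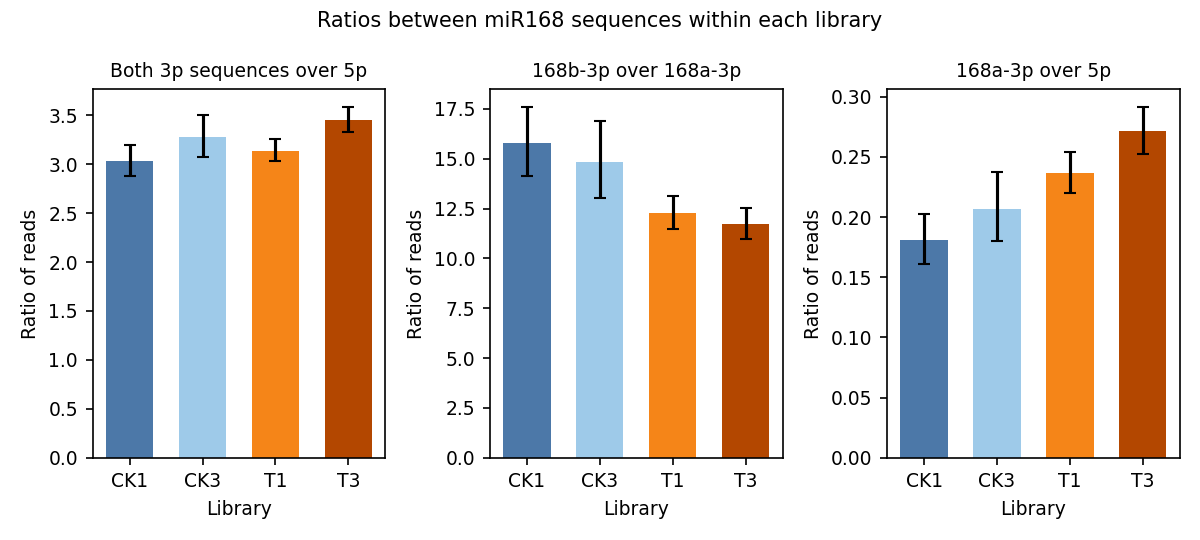
Ratios of reads (vertical, starting at 0) between miR168 sequences within each library: both 3p sequences over the 5p sequence, the b over the a 3p sequence, and the a 3p sequence over the 5p sequence, with Wilson 95% intervals for counting error. The b over a ratio is 15.8 and 14.9 in the unfed and 12.3 and 11.7 in the fed libraries, while the ratio of both 3p sequences to 5p lies between 3.03 and 3.46.

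After 1 day of feeding, the miR168 strands and zma-miR162-3p_R+1 stayed within 2-fold of CK1, with miR162 the furthest from it. Ratios are log2 differences of normalized reads with 1 added, and a call was made on size only: values had to be 2-fold or more apart on this scale, and the larger of them had to be 10 normalized reads or more. Single libraries allow no test. Only 4 of the 5 sequences were abundant enough to compare. None of the 4 was called, where 26.4% of all 159 compared entries were. The log2 ratio of T1 to CK1 was -0.20 for the 5p strand, -0.18 for the b strand and 0.19 for the a strand of miR168, and -0.69 for zma-miR162-3p_R+1. The median of the 4 was -0.19, against -0.10 over all compared entries. Against CK3, the other unfed library, the miR168 strands had log2 ratios of 0.28, 0.20 and 0.47 in the same order, so that of the 5p strand and that of the b strand changed sign. Only zma-miR162-3p_R+1 was called there, for its 0 in CK3, against 39.2% of 166 entries.

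After 3 days, the miR168 strands stood above CK3, and the 5p and b strands stood near CK1. The log2 ratio of T3 to CK3 was 0.33 for the 5p strand, 0.38 for the b strand and 0.72 for the a strand, none of which was called. The only one of the 4 sequences called was zma-miR162-3p_R+1, higher in T3, and this rests on its 0 in CK3. Of all 173 compared entries 45.7% were called and 25.4% were called higher, so a single call among 4 was near the background. The median of the 4 log2 ratios was 0.55, against 0.09 over all compared entries. Against CK1 the log2 ratio of T3 was -0.15 for the 5p strand, 0.01 for the b strand, 0.43 for the a strand and -0.51 for zma-miR162-3p_R+1, and none was called, against 27.7% of 166 entries.

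The unfed libraries also differed from each other. CK3 against CK1 had log2 ratios of -0.48 for the 5p strand, -0.37 for the b strand and -0.28 for the a strand of miR168, and zma-miR162-3p_R+1 was called lower in CK3. Of all 175 compared entries 48.6% were called and 22.9% were called lower. CK3 was the lowest of the 4 libraries for all 4 sequences, as it was for 38.8% of the 147 entries tested below. Between the fed libraries none of the 4 was called, against 16.5% of 158 entries, and the log2 ratios of T3 to T1 were 0.05 for the 5p strand, 0.18 for the b strand, 0.25 for the a strand and 0.18 for zma-miR162-3p_R+1.

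**Figure D4:**
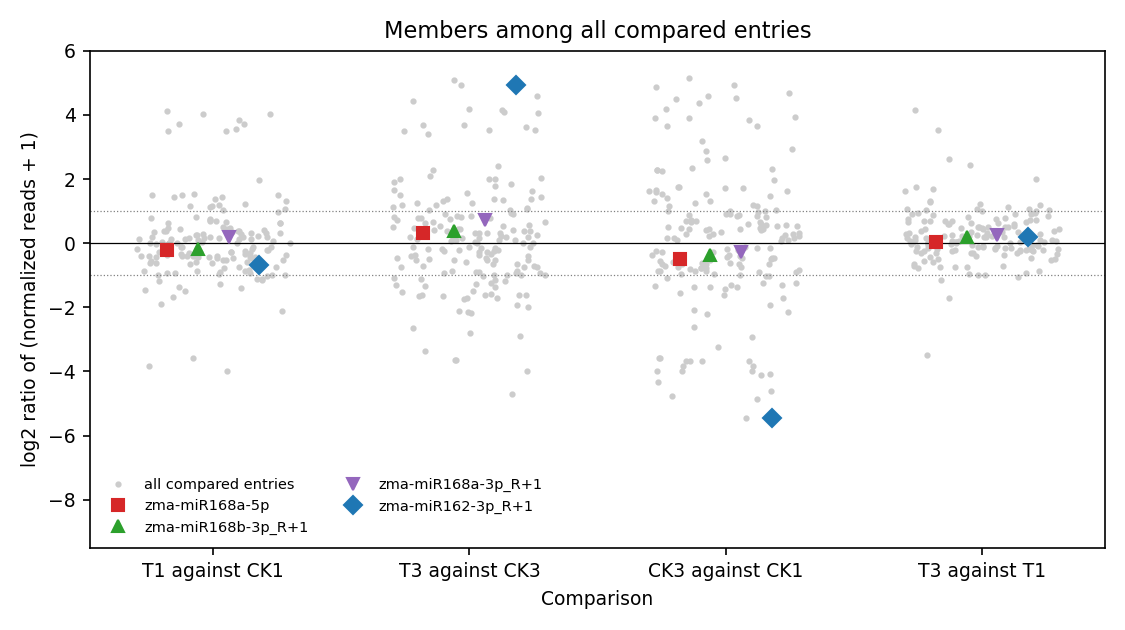
log2 ratios of normalized reads with 1 added (vertical) in 4 comparisons of single libraries; grey points are all entries compared, spread sideways for sight only, coloured symbols are 4 miR168 and miR162 sequences, and dotted lines mark 2-fold. The miR168 sequences stay between -0.48 and 0.72, and zma-miR162-3p_R+1 lies at the edge of the grey points where CK3, in which it is listed at 0, is compared.

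Fed against unfed, over all 4 libraries, no miR168 or miR162 sequence passed limma's test, which was fitted to 147 entries. The log2 difference was 0.06 ± 0.31 (SE, 2 against 2 libraries) for the 5p strand with an adjusted p of 0.966 by limma, and 0.10 ± 0.25 for the b strand with the same adjusted p. It was 0.45 ± 0.37 for the a strand and 2.12 ± 1.81 for zma-miR162-3p_R+1, both with an adjusted p of 0.850 by limma. The 95% intervals of these differences were -0.73 to 0.86, -0.53 to 0.74, -0.51 to 1.42 and -2.52 to 6.76, so a 2-fold difference lies outside the first 2 intervals and inside the others. Of the 147 entries, 0 were called (0% at an adjusted p of 0.05) and 7 had an unadjusted limma p under 0.05. lus-miR162a_R+1 did not reach the minimum for the test. The spread behind this test holds both the gap between T1 and T3 and the gap between CK1 and CK3. Without CK3, the log2 difference was -0.18 for the 5p strand, -0.08 for the b strand, 0.31 for the a strand and -0.60 for zma-miR162-3p_R+1.

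The 2 main miR168 strands were among the more even of the abundant entries. Among 46 entries with a mean of at least 100 normalized reads, the ratio of the highest to the lowest library was 1.30 for the b strand, the 3rd smallest, 1.40 for the 5p strand, the 5th smallest, and 1.65 for the a strand, the 15th smallest, with a median of 1.87 over the 46. With the libraries scaled to equal totals these ratios were 1.51, 1.62 and 1.91, ranked 10th, 12th and 23rd.

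By the distance between log2 profiles centred on their own mean over the 4 libraries, the 5p strand and the b strand of miR168 were closer to each other (0.13) than the 5p strand was to any of the 97 other entries with at least 10 normalized reads in all libraries. The nearest of those to the 5p strand were zma-miR156k-3p_L+1 (distance 0.17), zma-miR156k-5p_L+1 (0.18) and aof-miR171c (0.24). miR156 is known to target SPL factors, which promote the adult phase, and miR171 to target GRAS factors. For the b strand they were zma-miR156k-5p_L+1 (0.10), zma-miR156k-3p_L+1 (0.29) and zma-miR827-5p_L+1 (0.31). The a strand was further from the 5p strand (0.44) than 20 of the 97 other entries were. For zma-miR162-3p_R+1 this search could find no like profile, because it left out every entry listed at 0 in a library. An entry outside it, picked after its values were seen, was osa-MIR6253-p3_2ss5AC17TA_1, with 23.5 normalized reads in CK1, 19.1 in T1 and 33.1 in T3 and listed at 0 in CK3.

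Of 7 other families of the small RNA pathway, 4 were in the rows analysed here and 3 reached 10 normalized reads. miR390, which works with AGO7 to start the making of TAS3 small RNAs, had a total of 706 and 457 normalized reads in CK1 and CK3 and of 551 and 427 in T1 and T3. miR482, a regulator of NBS-LRR genes, was at 38.3, 33.0, 22.4 and 23.9, in that order of libraries. miR2118, which triggers phased small RNAs in grasses, stood at 22.8, 57.0, 21.5 and 16.2, so it was highest in CK3, where miR168 was lowest. miR2275 was listed only in T1, at 3.03. None of the 3 compared families was called in T1 against CK1 and 1, miR2118, was called lower in T3 against CK3, beside 26.4% of all entries called in the first comparison and 20.2% called lower in the second. miR2118 was also called higher in CK3 against CK1, with a log2 ratio of 1.28, as 25.7% of all entries were. The medians over the 3 were -0.36 and -0.45, beside -0.10 and 0.09 over all compared entries.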

How the data were processed

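Small RNA libraries of 4 maize leaf samples were analysed. Per the labels' protocols, RNA was extracted with Trizol and libraries were made with the TruSeq Small RNA kit. The labels' protocols speak of more libraries than these 4, and nothing says whether a column pools several. Per the file headers, the authors deposited a normalized signal per microRNA sequence. The scaling, aligner, caller and build were not given in the sources used here. From these values (pandas 2.3.3, limma 3.58.1 in R 4.3.3, scipy 1.17.1, RNAduplex of ViennaRNA 2.7.2), 307 entries were formed and log2(value + 1) differences computed. The value of 1 read was taken as the largest step that divides 85% or more of the low values evenly. As this held for 90.0% to 93.6% of all values above 0 in a library and not for all, the values were not tested as counts. The design had foreseen counts only as an alternative. limma used a trended prior, entries that reached 10 normalized reads in 2 or more libraries, and Benjamini-Hochberg adjustment, and was checked on simulated data. Every miR168 and miR162 sequence is named, and the 3 nearest profiles for the leading sequence of each arm. The members and lists were chosen with earlier results of these data known. Alternatives were other scalings, pseudocounts, controls, minimums and left-out libraries.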

Additional observations from a re-analysis of the deposited data

Results flagged for a closer look

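The comparisons of T1 with CK1 and of T3 with CK3 went in opposite directions for several values, a difference that was not tested, with 1 library on each side. The log2 ratio was -0.20 at day 1 and 0.33 at day 3 for zma-miR168a-5p, -0.18 and 0.38 for zma-miR168b-3p_R+1, and -0.16 and 0.39 for the miR168 total. It was -0.69 and 4.93 for zma-miR162-3p_R+1 and -0.69 and 5.09 for the miR162 total, where both day 3 values are set by a 0 in CK3 and by the pseudocount and are no measure of size. With CK1 as the control at both times, the miR168 total had log2 ratios of -0.16 and -0.01.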

How the results depend on the processing

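With the other unfed library as control, the log2 ratio of the miR168 total was 0.23 for T1 and -0.0086 for T3, and that of the miR162 total 4.76 for T1 and -0.36 for T3, with -0.51 for zma-miR162-3p_R+1 in T3. At equal totals the miR168 total had 0.60 for T3 against CK3 and -0.61 for CK3 against CK1, where the median of all compared entries also moved, from 0.09 to 0.31 and from 0.15 to -0.12. Median-of-ratios scaling gave 0.33 for T3 against CK3 and 0.10 for T3 against T1. With a pseudocount of 5 the miR162 total had 2.93 for T3 against CK3 and -3.25 for CK3 against CK1, and 14 entries were called between T3 and T1. With no minimum, 134 entries were called for T1 against CK1, 160 for T3 against CK3, 128 for CK3 against CK1 and 99 for T3 against T1. The calls by size were split into 44 higher and 35 lower for T3 against CK3, and 52 and 29 at equal totals. Counting only the leading sequence of each arm, the 3p share of miR168 was 74.0%, 75.4%, 74.4% and 76.1% in CK1, CK3, T1 and T3. Leaving out 1 library at a time, limma called 0 to 4 entries, 4 of them without CK3, in fits where an arm holds 1 library and is assumed to vary like the other arm, which alone gives the spread, and its untrended prior called 2; none was a miR168 or miR162 sequence. The log2 differences ran from -0.18 to 0.30 for zma-miR168a-5p, -0.084 to 0.29 for zma-miR168b-3p_R+1 and -0.60 to 4.85 for zma-miR162-3p_R+1, all negative only without CK3. The ratio of the miR168 3p strands in fed over unfed libraries ran from 0.760 to 0.807. With the title number as a replicate block, limma called 0 entries; the labels do not say what the number pairs, the deviations of CK1 and T1 correlated at 0.28, and no call changed. The cause of these changes was not tested.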
